A study of Mus musculus with 16 samples.

Results

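A set of 8 receptor genes of the steroid hormone systems was followed in mouse hippocampus: Nr3c1, Nr3c2, Pgr, Esr1, Esr2, Gper1, Esrra and Esrrg. They were taken by name from a count table of 46603 Ensembl gene IDs, in which all 8 were found. After the removal of genes with few reads, 7 of the 8 were among the 17055 genes tested, and Esr2 was not. The set is wider than the name steroid hormone nuclear receptors: Gper1 codes for a G protein-coupled membrane receptor, and Esrra and Esrrg code for nuclear receptors with no known steroid hormone as their natural ligand.

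The hippocampi were dissected from mice of the inbred laboratory strain C57BL/6 with a wild-type genotype. An intraperitoneal injection gave either vehicle or 100 mg/kg beta-sitosterol, the cholesterol-like sterol of plants, and the tissue was taken 1 h or 6 h later. The 4 groups were vehicle at 1 h, beta-sitosterol at 1 h, vehicle at 6 h and beta-sitosterol at 6 h, with 4 mice in each and 1 library per mouse. The sources used here do not give the composition of the vehicle or the age and sex of the mice.

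Steroid receptors of the nuclear type wait in the cell bound to chaperones, and on binding hormone they move to DNA and change the transcription of target genes with the help of coregulators. In the hippocampus the mineralocorticoid receptor binds corticosterone with high affinity and is largely occupied at rest, while the glucocorticoid receptor has lower affinity and fills during stress. The receptors grip DNA with a pair of zinc fingers, of which the first carries the P box, the short stretch that reads the hormone response element.

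The coding bases of that first finger show how the genes divide into subgroups, and they also bear on whether reads of one receptor could be counted for another. They are printed here 5′ to 3′ in the direction of the gene, from the GENCODE transcripts of build GRCm38, over 75 bases that lie within 1 exon in each of 5 genes. The capitals mark the 18 bases that hold the P box.
Pgr (chr9:8903657-8903731, plus strand): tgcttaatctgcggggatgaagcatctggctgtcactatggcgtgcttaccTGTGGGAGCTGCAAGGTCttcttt
Esr1 (chr10:4746717-4746791, plus strand): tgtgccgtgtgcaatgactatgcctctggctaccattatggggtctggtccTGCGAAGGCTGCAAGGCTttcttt
Esr2 (chr12:76165465-76165539, minus strand): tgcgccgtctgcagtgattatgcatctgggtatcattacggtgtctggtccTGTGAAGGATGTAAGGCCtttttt
Esrra (chr19:6920079-6920153, minus strand): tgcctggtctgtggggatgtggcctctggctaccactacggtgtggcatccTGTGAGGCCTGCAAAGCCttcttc
Esrrg (chr1:188043659-188043733, plus strand): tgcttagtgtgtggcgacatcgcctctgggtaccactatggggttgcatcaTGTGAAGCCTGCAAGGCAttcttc

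Among the 5 genes shown the closest pairs over these 75 bases were Esr1 and Esr2 with 61 identical bases (81.3%) and Esrra and Esrrg with 60 (80.0%). Pgr shared 47 bases (62.7%) with Esr1, 50 (66.7%) with Esr2, 54 (72.0%) with Esrra and 49 (65.3%) with Esrrg. Exact runs common to whole transcripts were sought in the direction of the genes. Simple-repeat runs, made of a single kind of base or a pair of kinds, were not counted. The longest run common to any pair was then 24 bases, between Nr3c2 and Pgr, and every other pair shared at most 17 bases. Gper1 has no zinc finger of this kind and by the same count shared at most 13 bases with any of the others.

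Each library held 24815581 to 31266644 counted reads. Levels are given as CPM, counts scaled to library size with TMM factors, and, where genes are compared, per kilobase (kb) of merged exon length. Listed markers of the hippocampal fields were present in every library: 4 CA1 markers summed to 489 to 640 CPM, 4 CA2 markers to 127 to 180 CPM, 4 CA3 markers to 160 to 218 CPM and 4 dentate gyrus markers to 197 to 403 CPM. Of 7 hypothalamus markers, 6 were under 1 CPM in every library, and the 7 together summed to 0.99 to 2.9 CPM. Thalamus markers summed to 65 to 145 CPM. Markers of the choroid plexus, the secretory epithelium that lies against the hippocampus, ranged from 87.9 to 6860 CPM, and in 4 libraries its abundant transcript Ttr, which codes for transthyretin, was under 100 CPM. Those 4 were vehicle mouse 5 at 1 h, vehicle mouse 14 at 6 h and beta-sitosterol mice 17 and 19 at 6 h.

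The mineralocorticoid receptor gene Nr3c2 was by far the most abundant of the 8. Its mean level over the 16 mice was 211 ± 20.6 CPM (SD, n = 16), or 32.6 CPM per kb, above 94.6% of tested genes before any correction for length. Nr3c1, the glucocorticoid receptor, followed at 11.8 CPM per kb and Esrra, the estrogen-related receptor alpha, at 8.79 CPM per kb. The order of those last 2 depends on the length used, since per kb of the longest transcript Nr3c1 stood at 14.1 and Esrra at 15.5 CPM, with ranges over mice of 13.1 to 15.9 and 14.1 to 17 that overlap.

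Esrrg, the estrogen-related receptor gamma, stood at 2.89 CPM per kb and Pgr, the progesterone receptor, at 2.73 CPM per kb. Their ranges, 2.41 to 3.41 and 2.53 to 3.12 CPM per kb, overlapped, and their order turned with the longest transcript as length. Gper1, the membrane estrogen receptor, was lower at 1.15 CPM per kb. Esr1 and Esr2, the estrogen receptors alpha and beta, were the least abundant at 0.208 and 0.0616 CPM per kb, and their highest and lowest mice did not overlap (0.147 to 0.287 against 0 to 0.146 CPM per kb). Between groups the means of a tested gene differed little: the highest group mean exceeded the lowest by 1.08-fold for Esrra and by 1.23-fold for Esr1, the ends of the range among the 7. For each of the 8 genes, each group overlapped its neighbour when the 4 groups were put in order of their means.

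**Figure D1:**
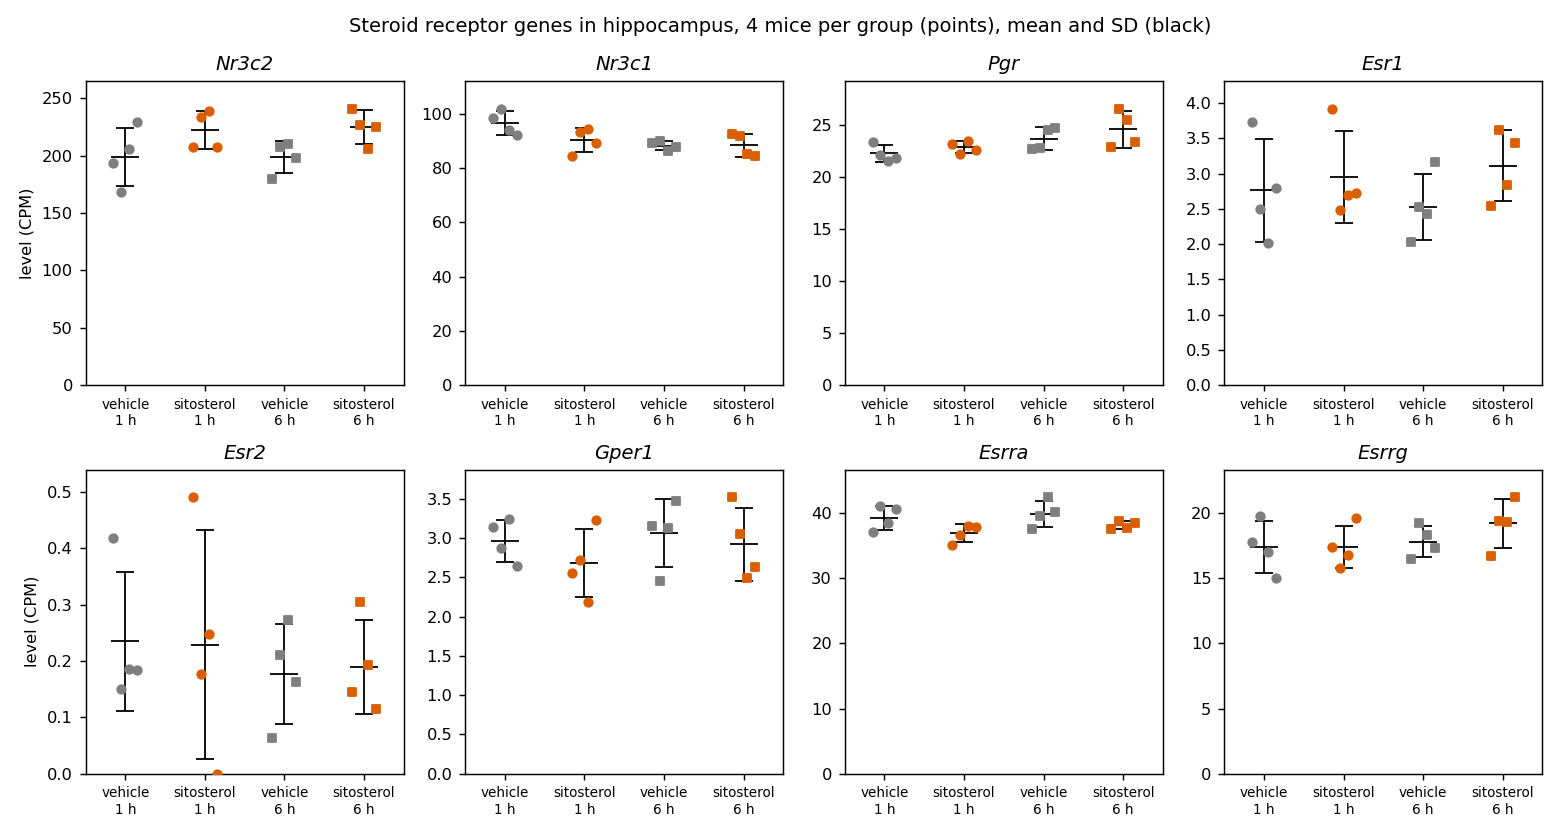
Level in CPM (vertical axis, linear, from 0, a separate scale for each gene) of the 8 receptor genes in each mouse, by group (horizontal axis). Points are mice (4 per group), the black bar is the mean and the whiskers the SD. Nr3c2 lies between 168 and 241 CPM, and Esr2 is at or under 0.49 CPM in every mouse.

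The genes differed in how far mice of the same group stood apart. Within groups the coefficient of variation (SD over mean) was 3.99% for Esrra, 4.26% for Nr3c1 and 4.81% for Pgr, against 3.07%, 2% and 3.94% from counting alone. Nr3c2 varied by 8.78% within groups, with only 1.31% from counting, and Esrrg by 9.47% against 4.5%. The 3 genes with few reads varied most, Gper1 by 14.1%, Esr1 by 21.1% and Esr2 by 61.5%, and counting alone gives 11.2%, 11.3% and 41.7% for them. Tests on Gper1 and Esr1, with 62 to 101 and 54 to 112 reads per library, are the least precise.

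None of the 7 tested genes was called, at an edgeR quasi-likelihood p under 0.05 after Benjamini-Hochberg adjustment over all genes, between treated and vehicle mice at 1 h, at 6 h or averaged over both times. Among all 17055 genes the share called was 0% at 1 h, 0% at 6 h and 0.0762% (13 genes) over both times. At an unadjusted p under 0.05 the counts of receptor genes were 0, 1 and 2 of 7, beside 10.2%, 12.1% and 20.5% of all genes. DESeq2, which gave an adjusted p to only 2, 2 and 5 of the 7, called 0, 0 and 1 of those, beside 1.12%, 2.96% and 14.9% of all genes with an adjusted p. The gene with an unadjusted p under 0.05 at 6 h was Nr3c2, and those over both times were Nr3c2 and Esrra. No receptor gene had treated and vehicle mice that did not overlap, at 1 h (4.99% of all genes) or at 6 h (8.97%). The both-times estimates of the 7 ran from -0.11 to 0.20 on the log2 scale with a median of 0.048, and the median of all genes was -0.013. The treatment comparisons use the same mice as the average over both times, so the latter is no separate evidence.

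**Figure D2:**
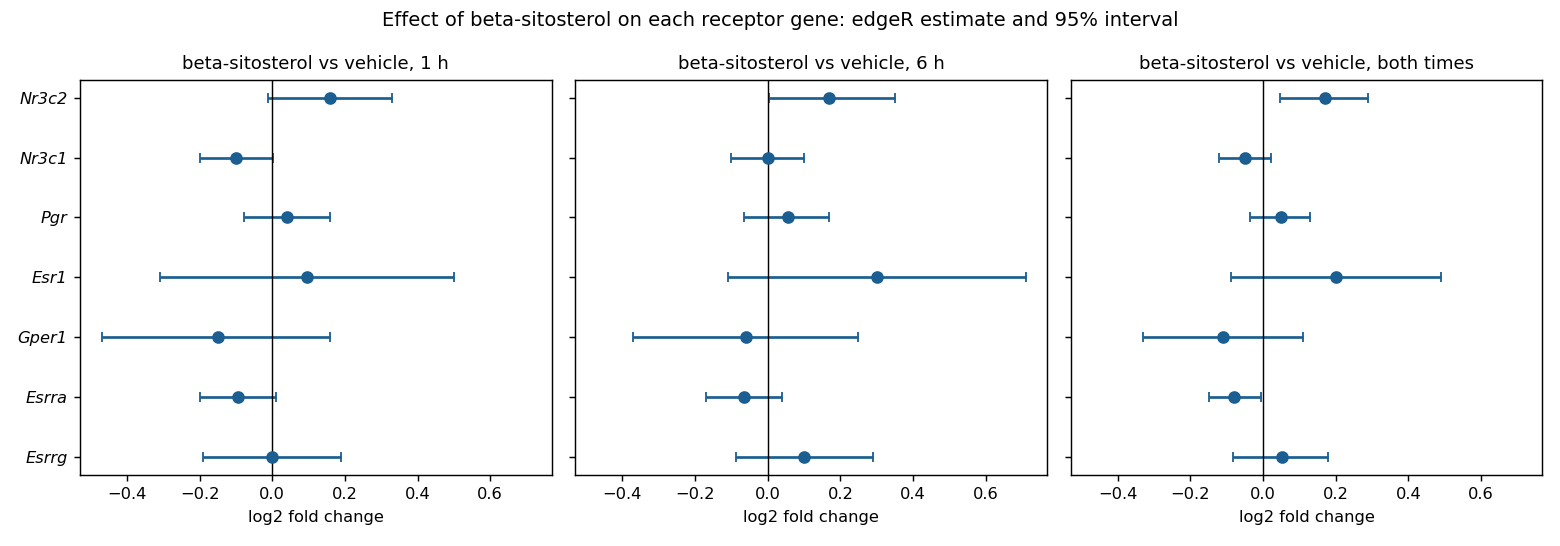
Log2 fold change (horizontal axis) of the 7 tested receptor genes for treated against vehicle mice at 1 h, at 6 h and over both times; points are edgeR estimates and bars their 95% intervals. The interval of Nr3c2 runs from 0.046 to 0.29 over both times and that of Esrra from -0.15 to -0.0055, while the intervals of Esr1 and Gper1 are the widest.

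Nr3c2 (ENSMUSG00000031618, chr8:76899442-77245012, plus strand) codes for the mineralocorticoid receptor. At 1 h its level was 194, 168, 206 and 229 CPM in the vehicle mice and 208, 234, 239 and 208 CPM in the beta-sitosterol mice. At 6 h it was 180, 208, 210 and 198 CPM in the vehicle mice and 241, 227, 206 and 225 CPM in the beta-sitosterol mice. All 8 treated mice lay above the vehicle mean of their own time, yet the groups overlapped at both times: vehicle mouse 5 at 1 h, at 229 CPM, exceeded 2 treated mice, and treated mouse 19 at 6 h, at 206 CPM, lay among the vehicle mice. The share of all genes with all treated mice on 1 side of the vehicle mean was not counted, here or for later genes.

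The group means of Nr3c2 were 199 ± 25.4 CPM with vehicle and 222 ± 16.6 CPM with beta-sitosterol at 1 h (SD, n = 4 each), and 199 ± 13.9 and 225 ± 14.5 CPM at 6 h. The log2 fold change was 0.16 (SE 0.081, 95% interval -0.013 to 0.33, edgeR adjusted p = 0.518) at 1 h and 0.17 (SE 0.081, 0.0048 to 0.35, adjusted p = 0.401) at 6 h. Over both times it was 0.17 (SE 0.0573, 0.046 to 0.29), a 1.12-fold difference, with an edgeR unadjusted p of 0.00954 and an adjusted p of 0.117. The effects at the 2 times differed by 0.018 (SE 0.115, -0.22 to 0.26, adjusted p = 1). In whole tissue, fewer cells of a type and less RNA per cell cannot be told apart, here or for the genes that follow.

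The call on Nr3c2 over both times turned with the method and with 1 library. DESeq2 gave the same log2 fold change of 0.17 with an adjusted p of 0.0382, beside the 14.9% of genes called by that tool. Without vehicle mouse 5 at 1 h, the vehicle mouse with the most Nr3c2 and also 1 of those low in Ttr, edgeR gave 0.20 (SE 0.0525, adjusted p = 0.03), beside 7.01% of all genes called. Without vehicle mouse 3, which had the least Nr3c2, the 1 h estimate fell to 0.083 and the both-times estimate to 0.13 (adjusted p = 0.201). Exons of Nr3c2 share 247 bases with Gm10649, a noncoding gene on the opposite strand, and reads there cannot be told apart without the strand setting of the counting.

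**Figure D3:**
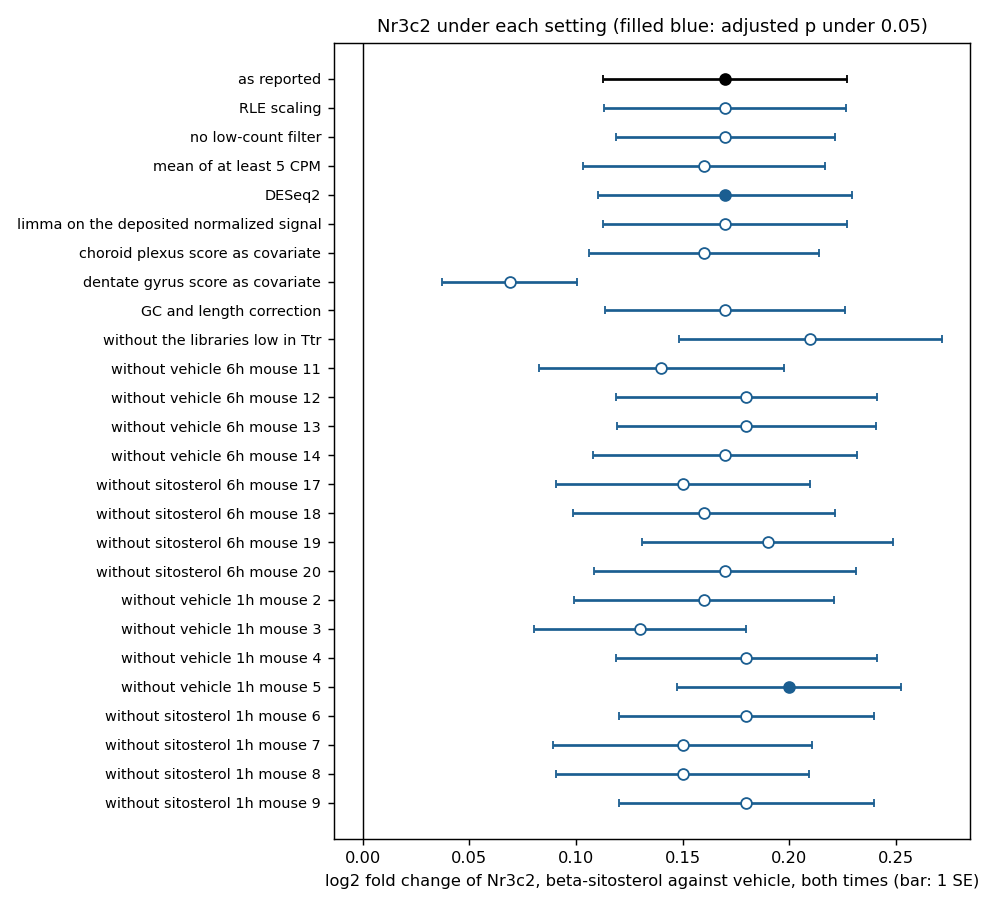
Log2 fold change of Nr3c2 for beta-sitosterol against vehicle over both times (horizontal axis, bar 1 SE) under each setting (vertical axis). Filled blue points have an adjusted p under 0.05 and open points do not; the black point is the estimate reported above, with an adjusted p of 0.117. All estimates are above 0, the lowest being 0.069 with the dentate gyrus score in the model.

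Nr3c2 moved with markers of the dentate gyrus, the hippocampal field of granule cells. A score, the mean log-CPM of the 4 markers Prox1, Dsp, C1ql2 and Tdo2, was correlated with the log-CPM of Nr3c2 over the 16 mice. Pearson's r was 0.877 (permutation p = 2e-05, adjusted p = 0.00154 over 77 relations of 7 genes with 11 marker lists). Spearman's rho was 0.774 (permutation p = 0.0006, adjusted p = 0.0462). The other marker lists were scored in the same way. Without the 2 mice farthest from the median of the score r was 0.755, and with each group centred on its own mean it was 0.931. Vehicle mouse 3 at 1 h was lowest in both the summed CPM of the markers, at 197, and Nr3c2, at 168 CPM. Treated mouse 17 at 6 h was highest in both, at 403 and 241 CPM.

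The marker sum was also higher on average in the treated groups. It was 275 ± 70.3 CPM with vehicle and 312 ± 44.8 CPM with beta-sitosterol at 1 h (SD, n = 4 each), and 303 ± 35.8 and 355 ± 32.7 CPM at 6 h. None of the 4 markers was called in a treatment comparison. Prox1, the granule cell transcription factor, had the largest both-times log2 fold change, 0.24 (SE 0.101, edgeR adjusted p = 0.2). Those of Dsp, C1ql2 and Tdo2 were 0.21 (SE 0.138), 0.14 (SE 0.154) and 0.11 (SE 0.0733), and Tdo2 stood at -0.0067 (SE 0.104) at 1 h. With the dentate gyrus score in the model, an alternative chosen after seeing the data, the estimates for Nr3c2 were 0.08 at 1 h, 0.058 at 6 h and 0.069 (SE 0.0317, edgeR adjusted p = 0.275) over both times. The part of these markers in the result was not tested beyond that model. The only other relation of the 77 with an adjusted permutation p under 0.05 was that of Nr3c2 with CA3 markers, r = 0.768 (adjusted p = 0.03, rho = 0.585 with adjusted p = 0.167), and it fell to 0.366 without the 2 farthest mice. With each group centred on its own mean, the r with CA3 markers was 0.706. With the astrocyte marker score Nr3c2 had r = -0.666 (adjusted permutation p = 0.0699) and rho = -0.606 (adjusted p = 0.167). With each group centred on its mean that r was -0.663, and the part of astrocyte markers was not tested.

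**Figure D4:**
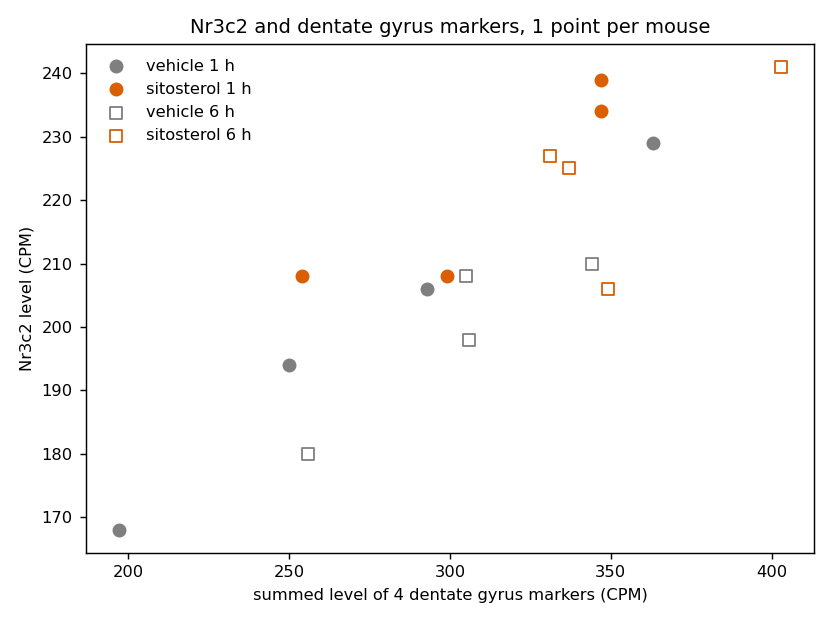
Level of Nr3c2 (vertical axis, CPM) against the summed level of 4 dentate gyrus markers (horizontal axis, CPM); each point is 1 mouse, filled circles for 1 h, open squares for 6 h, grey for vehicle and orange for beta-sitosterol. Both axes start above 0. The correlation given in the text used the mean log-CPM of the markers in place of this sum. The mouse with the fewest markers has 168 CPM of Nr3c2 and the mouse with the most has 241 CPM.

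Nr3c1 (ENSMUSG00000024431, chr18:39410545-39519421, minus strand) codes for the glucocorticoid receptor. Its level at 1 h was 98.7, 102, 94.2 and 92.3 CPM in vehicle mice and 84.4, 93.3, 94.5 and 89.5 CPM in treated mice. By 6 h it was 89.5, 90.1, 86.5 and 87.7 CPM with vehicle and 92.5, 91.8, 85.1 and 84.6 CPM with beta-sitosterol. The 4 vehicle mice at 1 h thus all lay above the 4 vehicle mice at 6 h, while treated and vehicle mice overlapped at each time.

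For beta-sitosterol against vehicle the log2 fold change of Nr3c1 was -0.099 (SE 0.0486, 95% interval -0.20 to 0.0034, edgeR adjusted p = 0.5) at 1 h and 0.0011 (interval -0.10 to 0.10, adjusted p = 0.996) at 6 h. The difference of these effects was 0.1 (SE 0.0688, -0.045 to 0.24, adjusted p = 1). In vehicle mice the change from 1 h to 6 h was -0.13 (SE 0.0486, -0.23 to -0.028) with an edgeR unadjusted p of 0.0151 and an adjusted p of 0.396. This comparison and that of treatment at 1 h share the 4 vehicle mice at 1 h. It was the 1 receptor gene of 7 whose groups did not overlap in a comparison, beside 4.81% of all genes in that comparison. In treated mice the change over time was -0.031 (SE 0.0487, adjusted p = 0.921). No receptor gene had groups that did not overlap between 6 h and 1 h in treated mice (5.28% of all genes). In the difference of effects and in both comparisons over time, 0 of 7 receptor genes were called, beside 0% of all genes in each. The unadjusted counts of receptor genes were 0, 1 and 0 of 7, beside 1.92%, 10.6% and 6.97% of all genes. In the same vehicle mice 8 astrocyte markers summed to 6260 to 7180 CPM at 1 h and 5680 to 6370 CPM at 6 h. For 8 microglia markers the sums were 396 to 455 CPM and 356 to 396 CPM. In treated mice the astrocyte sums were 5720 to 6160 CPM at 1 h and 5260 to 5950 CPM at 6 h. Their microglia sums were 368 to 411 CPM and 319 to 368 CPM. At 1 h the astrocyte sums of treated mice all lay below those of vehicle mice, and at 6 h they overlapped. The microglia sums overlapped at both times. Over the 16 mice Nr3c1 had r = 0.672 (adjusted permutation p = 0.0699) and rho = 0.515 (adjusted p = 0.329) with the astrocyte score, the mean log-CPM of those markers. With the microglia score it had r = 0.663 (adjusted p = 0.0699) and rho = 0.585 (adjusted p = 0.167). With each group centred on its mean, r was 0.295 and 0.353, and without the 2 farthest mice it was 0.461 and 0.511. The part of these markers in the result was not tested.

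The ratio of Nr3c2 to Nr3c1 reads sets the 2 corticosteroid receptor genes against each other within a library, so that library scaling cancels. At 1 h it was 1.96, 1.64, 2.19 and 2.48 in vehicle mice and 2.46, 2.51, 2.53 and 2.32 in treated mice. At 6 h it was 2.01, 2.31, 2.43 and 2.26 in vehicle mice and 2.61, 2.48, 2.42 and 2.65 in treated mice. Vehicle and treated mice overlapped at both times. At 6 h the overlap was narrow, with the highest vehicle mouse at 2.43 and the lowest treated mouse at 2.42.

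As log2 values the group means were 1.03 ± 0.251 and 1.29 ± 0.0557 at 1 h and 1.17 ± 0.116 and 1.34 ± 0.0629 at 6 h (SD, n = 4 each), vehicle first. The treated means were higher by 0.26 and 0.18, beside a pooled SD within groups of 0.145. No test was made of this ratio. Leaving out each mouse in turn gave differences of 0.16 to 0.35 at 1 h and 0.12 to 0.21 at 6 h.

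**Figure D5:**
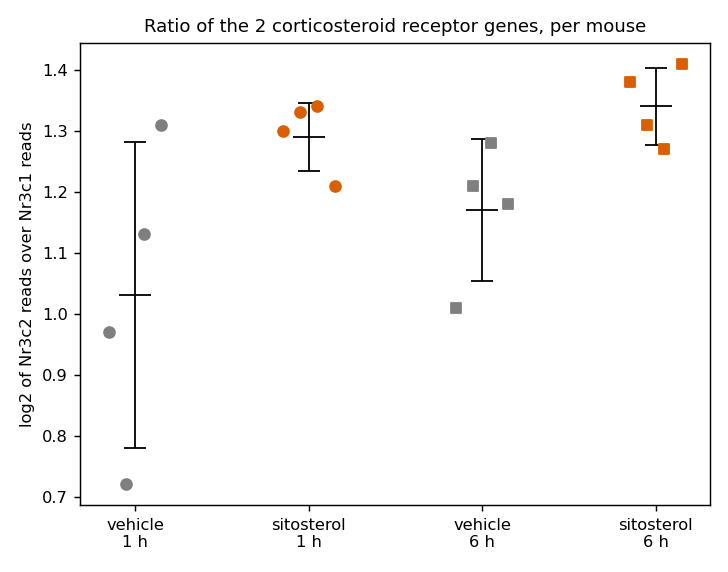
Log2 of the ratio of Nr3c2 to Nr3c1 reads (vertical axis, starting above 0) in each mouse by group; points are mice, the bar is the mean and the whiskers the SD. The vehicle mice at 1 h spread from 0.72 to 1.31, and the treated mice lie between 1.21 and 1.41 at both times.

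Pgr (ENSMUSG00000031870, chr9:8899833-8968611, plus strand), the progesterone receptor and itself a classical target of estrogen receptors, had group means between 22.3 and 24.6 CPM. It stood at 23.4, 22.1, 21.6 and 21.9 CPM in vehicle mice and 23.2, 22.2, 23.5 and 22.6 CPM in treated mice at 1 h. At 6 h it stood at 22.7, 22.8, 24.5 and 24.7 CPM and at 22.9, 26.6, 25.5 and 23.4 CPM. Treated and vehicle mice overlapped at both times. The log2 fold change for beta-sitosterol over both times was 0.048 (SE 0.0403, edgeR adjusted p = 0.521), and its 95% interval, -0.036 to 0.13, leaves room for differences of either sign. It was 0.028 without treated mouse 18 at 6 h. In treated mice Pgr at 6 h against 1 h was 0.10 (SE 0.0569, adjusted p = 0.748), from 22.9 ± 0.585 to 24.6 ± 1.77 CPM (SD, n = 4 each).

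Esr1 (ENSMUSG00000019768, chr10:4611593-5005614, plus strand) codes for estrogen receptor alpha. It was low in every mouse, at 3.73, 2.5, 2.01 and 2.79 CPM with vehicle and 3.92, 2.48, 2.69 and 2.73 CPM with beta-sitosterol at 1 h. At 6 h the values were 2.03, 2.52, 2.42 and 3.16 CPM with vehicle and 2.54, 3.62, 2.84 and 3.43 CPM with beta-sitosterol. All 4 treated mice at 6 h were above the vehicle mean of 2.53 CPM, and 2 of them were above every vehicle mouse. The log2 fold change was 0.097 (SE 0.194, 95% interval -0.31 to 0.50) at 1 h and 0.30 (SE 0.195, -0.11 to 0.71, edgeR adjusted p = 0.545) at 6 h. Without the 4 libraries low in Ttr the 6 h estimate was 0.61 (SE 0.242, edgeR adjusted p = 0.639). That estimate rests on only 2 treated mice at 6 h, those with the most Esr1 (3.62 and 3.43 CPM). At 1 h the sign turned without vehicle mouse 4 (-0.027) or treated mouse 6 (-0.07).

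Esr2 (ENSMUSG00000021055, chr12:76120419-76177259, minus strand), estrogen receptor beta, was at the edge of detection with 92 reads over all 16 libraries. The vehicle mice at 1 h had 12, 4, 5 and 5 reads and the treated mice 14, 5, 7 and 0. At 6 h the counts were 2, 6, 8 and 4 with vehicle and 4, 8, 5 and 3 with beta-sitosterol. The treated mouse with no read, mouse 9, allows a level of up to 0.114 CPM (3 counts, counting error only). At 1 h the highest mouse of each group, vehicle mouse 2 and treated mouse 6, was also the highest for Esr1. Markers of the hypothalamus, a region known for its estrogen receptors, summed to 1.5 and 1.26 CPM in these 2 mice, within the 0.99 to 2.9 CPM of all libraries. These sums are near the floor, and the cause of the high values was not tested.

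Gper1 (ENSMUSG00000053647, chr5:139423151-139427800, plus strand) codes for a membrane receptor that answers estrogen through G proteins. It stood at 3.14, 2.88, 3.24 and 2.64 CPM in vehicle mice and 2.56, 2.72, 2.19 and 3.23 CPM in treated mice at 1 h. At 6 h the values were 3.16, 2.45, 3.13 and 3.48 CPM and 3.52, 3.05, 2.49 and 2.63 CPM. High and low mice occurred in each group, and the log2 fold change over both times was -0.11 (SE 0.104, 95% interval -0.33 to 0.11, edgeR adjusted p = 0.587). Leaving out each mouse moved the estimate at 1 h, -0.15, to between -0.26 without treated mouse 9 and -0.072 without treated mouse 8. Over the 16 mice Gper1 had r = 0.69 (adjusted permutation p = 0.0699) and rho = 0.665 (adjusted p = 0.121) with endothelial markers, and r = 0.587 without the 2 farthest mice. With CA2 markers it had r = -0.608 (adjusted p = 0.12) and rho = -0.706 (adjusted p = 0.0806), and r = -0.742 without the 2 farthest mice. With each group centred on its mean, r was 0.676 with endothelial, -0.631 with CA2 and 0.717 with microglia markers. Before centring, microglia markers gave r = 0.363 (adjusted permutation p = 0.47) and rho = 0.459 (adjusted p = 0.426). Without the 2 farthest mice the r with microglia markers was 0.348.

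Esrra (ENSMUSG00000024955, chr19:6910977-6921813, minus strand) codes for estrogen-related receptor alpha, a regulator of mitochondrial energy genes. At 1 h it stood at 37.1, 41.1, 38.5 and 40.6 CPM with vehicle and 35.1, 36.6, 38 and 37.9 CPM with beta-sitosterol. The 6 h values were 37.5, 39.5, 42.4 and 40.1 CPM with vehicle and 37.5, 38.8, 37.7 and 38.4 CPM with beta-sitosterol. None of the 8 treated mice was above the vehicle mean of its time, and the groups overlapped through the lowest vehicle mouse at each time. The log2 fold change was -0.093 (SE 0.0496, edgeR adjusted p = 0.53) at 1 h, -0.065 (SE 0.0495, adjusted p = 0.615) at 6 h and -0.079 (SE 0.035, 95% interval -0.15 to -0.0055) over both times. The last had an edgeR unadjusted p of 0.0366 and an adjusted p of 0.211. The 6 h estimate was -0.034 without vehicle mouse 13, -0.038 without the libraries low in Ttr and -0.031 with the GC and length correction. Exons of Esrra share 73 bases with Trmt112 on the opposite strand and 91 with the microRNA gene Mir6990.

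Esrrg (ENSMUSG00000026610, chr1:187608791-188214885, plus strand) codes for estrogen-related receptor gamma, which is active without a ligand. It stood at 17.8, 19.8, 17 and 15 CPM in vehicle mice and 17.4, 15.8, 16.8 and 19.6 CPM in treated mice at 1 h. The 6 h values were 16.5, 19.2, 18.3 and 17.3 CPM and 16.7, 19.4, 19.3 and 21.2 CPM. At 6 h 3 of 4 treated mice exceeded every vehicle mouse and the fourth lay among them. The log2 fold change was -0.0015 (SE 0.0903, 95% interval -0.19 to 0.19) at 1 h and 0.10 (SE 0.0899, -0.086 to 0.29, edgeR adjusted p = 0.665) at 6 h. The 6 h estimate was 0.051 without treated mouse 20, 0.066 without vehicle mouse 11, 0.16 without treated mouse 17, 0.18 without the libraries low in Ttr and 0.20 with the dentate gyrus score in the model. Esrrg had r = -0.331 (adjusted permutation p = 0.524) and rho = -0.374 (adjusted p = 0.624) with that score. With each group centred on its mean r was -0.737, and without the 2 farthest mice it was -0.108. The part of these markers was not tested.

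Among 14572 genes with a mean of at least 1 CPM, the 3 with the highest Pearson correlation of log-CPM with each receptor gene over the 16 mice are given as a description. They share libraries and depth with the receptor gene and are the best of many. Nr3c2 was most like Stxbp6 (r = 0.965), Btbd9 (0.942) and Pdyn (0.937), the last the precursor of dynorphin peptides. Pgr was most like Drosha (0.893), Ficd (0.839) and Arhgap26 (0.815), and Nr3c1 most like Isca2 (0.851), Sall1 (0.83) and Mfap3l (0.828). The nearest to Esrrg were Aldh3a2 (0.879), Pgk1 (0.861) and Uqcc1 (0.842), and the nearest to Esrra were Tfeb (0.801), Vim (0.793) and Shd (0.775). For Gper1 they were Sigirr (0.874), Ets1 (0.867) and Acvrl1 (0.83). Esr1 had the lowest values, with Mfsd9 (0.728), Slc41a2 (0.7) and Lclat1 (0.69).

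The genes around the receptors were described by 7 lists with 88 genes in all, of which 82 were tested. With all 16 libraries edgeR called no gene of any list in any of the 6 comparisons. Over both times DESeq2 called 6 of 15 chaperones, 2 of 14 coregulators, 2 of 13 glucocorticoid-induced genes and 1 of 7 estrogen receptor targets that had an adjusted p, beside 14.9% of all such genes, and none of the other lists. Without vehicle mouse 5 at 1 h edgeR called 3 of 15 chaperones, 1 of 15 coregulators, 3 of 18 glucocorticoid-induced genes and 2 of 12 estrogen receptor targets over both times, beside 7.01% of all genes. Of 25 alternative settings over both times, 16 kept the count of called chaperones at 0. For coregulators 23 did, and 21 each for glucocorticoid-induced genes and estrogen receptor targets. The highest counts were 6, 2, 3 and 2 in that order. The count over all genes was kept in 2 of the 25. The 15 chaperones and immunophilins, which hold the receptors ready for hormone, had positive estimates for 14 genes at 1 h, 12 at 6 h and 13 over both times, with medians of 0.087, 0.07 and 0.066 against all-gene medians of -0.0039, -0.014 and -0.013. Of these 15 genes, 6, 5 and 8 had an unadjusted p under 0.05, beside 10.2%, 12.1% and 20.5% of all genes, which are also the shares to read the unadjusted counts of the next lists against. The smallest edgeR adjusted p of the list over both times was 0.0526. Hspa4, a nucleotide exchange factor for heat shock chaperones, had 244 ± 5.73 CPM with vehicle and 277 ± 5.85 CPM with beta-sitosterol at 1 h (log2 fold change 0.18, SE 0.0513, edgeR adjusted p = 0.395). At 6 h it had 261 ± 19.2 and 295 ± 11.6 CPM (0.17, adjusted p = 0.321, SD, n = 4 each). DESeq2 called 1 of the 14 chaperones with an adjusted p at 1 h and 1 of 14 at 6 h, beside 1.12% and 2.96% of all such genes.

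The 15 coregulators, which carry the receptors' effect to the transcription machinery, had medians of 0.053 at 1 h, 0.042 at 6 h and 0.036 over both times, and 1, 3 and 4 of them had an unadjusted p under 0.05. Nrip1, a corepressor, stood at 53.1 ± 4.22 and 59.8 ± 2.9 CPM at 1 h and 54 ± 5.54 and 60.4 ± 2.88 CPM at 6 h, vehicle first, with log2 fold changes of 0.17 (SE 0.0698, edgeR adjusted p = 0.441) and 0.16 (SE 0.0697, adjusted p = 0.378). Of 16 genes for the synthesis, activation and export of steroids, 11 were tested, with medians of -0.024, -0.043 and -0.048 and 0, 2 and 1 genes at an unadjusted p under 0.05. The smallest p values in that list were those of Tspo, a mitochondrial outer membrane protein, at 1 h (-0.46, edgeR adjusted p = 0.551) and of Cyp7b1, an oxysterol and neurosteroid hydroxylase, at 6 h (0.19, adjusted p = 0.363). Tspo shares 53 exon bases with Mcat on the opposite strand.

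Of 18 glucocorticoid-induced genes, which are targets of the corticosteroid receptors, 13 at 1 h, 12 at 6 h and 13 over both times had positive estimates, with medians of 0.099, 0.087 and 0.11, and 2, 2 and 5 had an unadjusted p under 0.05. Dusp1, a MAP kinase phosphatase, went the other way at 1 h, with 17.3 ± 2.85 CPM in vehicle and 11.3 ± 1.68 CPM in treated mice (SD, n = 4 each) (log2 fold change -0.61, SE 0.124, edgeR adjusted p = 0.365). Errfi1, an inhibitor of epidermal growth factor receptor signalling, had the smallest p at 6 h (0.29, SE 0.108, adjusted p = 0.336).

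The 12 estrogen receptor targets had medians of 0.088, 0.035 and 0.085 and 2, 2 and 3 genes at an unadjusted p under 0.05, Pgr being both a member of the receptor set and of this list. Igf1, insulin-like growth factor 1, had 7.33 ± 0.762 CPM in vehicle and 9.79 ± 0.939 CPM in treated mice at 6 h (SD, n = 4 each) (0.42, SE 0.0973, edgeR adjusted p = 0.321). Gal, the neuropeptide galanin, had the smallest p at 1 h at a level under 1 CPM (0.71, SE 0.253, adjusted p = 0.429). The 13 tested targets of the estrogen-related receptors had medians of 0.0066, 0.047 and 0.011, and 1, 0 and 3 had an unadjusted p under 0.05. Ckmt1, a mitochondrial creatine kinase, at 1 h (0.18, edgeR adjusted p = 0.439) and Mfn2, a mitochondrial fusion protein, at 6 h (0.099, adjusted p = 0.454) had the smallest p in that list. Exons of Dusp1 and Ckmt1 overlap genes on the opposite strand by 11 and 10 bases.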

How the data were processed

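RNA from hippocampus was sequenced from TruSeq mRNA libraries, per the labels' protocols, after selection for RNA integrity. The deposited raw counts give whole reads for each Ensembl gene, as the authors counted them. A second deposited table holds the authors' normalized signal, the counts multiplied by a factor per library of 0.853 to 1.11, and served only as an alternative. The submitters' processing notes name the genome build GRCm38, and, with no role stated, TopHat2 2.0.10, HTSeq 0.6.1p1, DESeq2 1.6.3, cutadapt and CASAVA 1.8.2. The sources used here do not give the strand setting or annotation release, so it is not known how reads in overlapping genes were counted.

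Groups and mouse numbers came from the sample titles. Each number names a different mouse, so the tests set group differences against the spread between mice. IDs were matched to GENCODE M21 (46091 of 46603). Genes were kept with filterByExpr (minimum count 10, total 15), and the 17055 kept hold 99.94% of the reads. Tests used edgeR 4.0.16 in R 4.3.3: TMM scaling, a robust quasi-likelihood fit of 1 mean per group over the 16 libraries, no covariate and 12 residual degrees of freedom, with Benjamini-Hochberg adjustment over all genes tested and calls under 0.05. The common biological coefficient of variation was 0.0988. The fit was tested on simulated data. Log-CPM used a prior count of 2. Correlations used 100000 permutations of the 16 mice without regard to group (scipy 1.17.1). Their p-values thus do not separate differences between groups from those within groups.

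Alternatives were RLE scaling, no filter, a mean of at least 5 CPM, DESeq2 1.42.0, limma 3.58.1 on log2 of the deposited signal plus 1, only the groups compared, a choroid plexus score as covariate, a GC and length correction, leaving out the 4 libraries low in Ttr, and leaving out each mouse. The dentate gyrus score as covariate and the longest transcript as length were added after seeing the data. All receptor genes are named. Of each pathway list the gene with the smallest p at 1 h and at 6 h is named, since edgeR with all libraries called none. Some genes and sequences are not reported here. The receptor genes, lists and markers were chosen with earlier results of these data known.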

Additional observations from a re-analysis of the deposited data

Results flagged for a closer look

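Of 36 groups of 4 mice whose levels were checked for a mouse far from the others, 1 was picked out, and chance alone picks out about 1 in 20. It was Esr2 in vehicle mice at 1 h, where mouse 2 stood at 0.418 CPM, from 12 reads, and the other mice at 0.151, 0.186 and 0.184 CPM. The gap to the nearest mouse was 0.87 of the whole range of the group, above Dixon's limit for 4 values. Esr1 was also highest in that mouse among the vehicle mice at 1 h, at 3.73 CPM.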

How the results depend on the processing

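For 25 log2 fold changes of the receptor genes, 604 of 624 values under the alternatives kept their direction and their side of the threshold, leaving out 12 to which DESeq2 gave no adjusted p. The number of receptor genes called over both times rose from 0 to 1 with DESeq2 and ranged from 0 to 1 when each mouse was left out, the 1 being Nr3c2 (0.17 with DESeq2 and 0.20 without vehicle mouse 5 at 1 h). In the other comparisons it was 0 under every alternative. Among all genes the both-times count moved from 13 to between 0 and 1307, the highest with DESeq2 and the next, 1206, without that same vehicle mouse. The sign changed for 4 estimates, none of them called. Esrrg at 1 h became 0.0019 with limma and 0.073 with the dentate gyrus score. Nr3c1 at 6 h became -0.006 at a mean of at least 5 CPM, -0.017 with the GC and length correction and -0.003 without the libraries low in Ttr. Gper1 at 6 h became 0.031 with the GC and length correction. Leaving out each mouse gave -0.07 to 0.28 for Esr1 and -0.067 to 0.067 for Esrrg at 1 h, and -0.021 to 0.022 for Nr3c1 and -0.16 to 0.0083 for Gper1 at 6 h. The causes were not tested. A mean of at least 5 CPM gives no value for Esr1, Esr2 and Gper1, whose few reads limit what can be detected. No paired analysis was possible because each mouse number occurs in only 1 group.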
